A study of Mus musculus with 4 samples.

Results

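Mybl2 lies on the plus strand of mouse chromosome 2, at chr2:163054687-163084688 in mm10, where the GENCODE annotation gives it 14 exons over 30002 bp (ENSMUSG00000017861.11). The CpG sites described here are those of the gene and of 10 kb on either side, chr2:163044687-163094688. At least 1 of the 4 libraries listed 422 of the 794 CpGs of this window, out of 6223978 sites listed anywhere in the series. The window was selected on a measured value, the lower mean methylation of Mybl2 in Tet/Tet ESCs than in R1 ESCs. Every difference between the ESC libraries at Mybl2 is therefore a description of what selected the gene. The neuron libraries played no part in that choice. Mybl1, a relative of Mybl2 on the minus strand of chromosome 1 (chr1:9667415-9700209, ENSMUSG00000025912.16), was taken with 10 kb on either side as a family control, and 161 of its 412 CpGs were listed.

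The study used RRBS (reduced representation bisulfite sequencing) on 4 libraries, 1 each of R1 ESCs, Tet/Tet ESCs and the neurons made from either line. R1 is a wild-type mouse embryonic stem cell line. Tet/Tet is 1 line derived from R1 with tet-off constructs knocked in at Dnmt1, it overexpresses DNMT1, and it was kept in puromycin and neomycin, which R1 was not. Neurons came from embryoid bodies of 2 days followed by 10 to 15 days in NDiff227 medium, according to the labels. In the ESC libraries, within 1 kb of its start, Pou5f1 averaged 1.58% in R1 and 10.6% in Tet/Tet, Nanog 2.53% and 2.74%, Zfp42 1.14% and 1.11%, and Tdgf1 9.04% and 1.27%, while Dppa3 averaged 39.1% and 63.9% and Esrrb 51% and 36.5%. In neurons of R1 and Tet/Tet, Pou5f1 averaged 43.8% and 6.13%, Nanog 21.6% and 10.2%, Dppa3 96.7% and 22.8%, and Esrrb 79.0% and 4.01%. Zfp42 and Tdgf1 had 68.7% and 15.6% in R1 neurons, with no Tet/Tet value used here. RRBS measures no expression, so neither these markers nor the DNMT1 level of a library could be checked further. The ESC libraries were sequenced in 1 project and the neuron libraries in another, so the project and the cell type cannot be told apart, but both libraries of a cell type shared a project. With 1 library per condition there was no replicate spread and no test. The SD values below are over CpG sites, which neighbouring reads share, and the read depth of a site is unknown.

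Mybl2 encodes B-Myb, a transcription factor of dividing cells that joins the MuvB complex and, with FOXM1, switches on genes of the G2 and M phases. It is highly expressed in embryonic stem cells and falls when cells leave the cycle. Mybl1 encodes A-Myb, best known from male meiosis, and Myb encodes c-Myb of blood progenitors. In mammals most CpGs are methylated, CpG islands at active or poised starts stay free of methylation, and the bodies of transcribed genes are usually methylated. DNMT1 copies methylation to the new strand after replication.

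The sites that carry the comparison sit in short groups within the gene body. The sequences are shown because they hold 5 groups of CpGs that all 4 libraries listed and that were lower in Tet/Tet ESCs, with the region before the start, where the libraries were close, for contrast. A further group, in intron 5 near Mir7003, is not shown because R1 neurons listed none of its sites. They are the plus strand of GRCm38 (mm10), 5′ to 3′, and capitals mark the CpGs that both ESC libraries listed.
Before the Mybl2 start, chr2:163054487-163054686: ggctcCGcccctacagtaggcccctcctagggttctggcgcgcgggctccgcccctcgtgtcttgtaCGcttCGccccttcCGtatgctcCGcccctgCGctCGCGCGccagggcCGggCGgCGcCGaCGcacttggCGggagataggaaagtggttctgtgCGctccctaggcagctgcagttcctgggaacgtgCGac
Intron 3 and exon 4, chr2:163062350-163062495: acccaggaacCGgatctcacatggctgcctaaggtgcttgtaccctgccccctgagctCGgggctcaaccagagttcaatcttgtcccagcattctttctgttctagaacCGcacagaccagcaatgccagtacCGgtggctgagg
Exon 8, chr2:163074517-163074606: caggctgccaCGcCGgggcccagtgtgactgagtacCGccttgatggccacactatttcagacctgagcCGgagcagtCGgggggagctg
Intron 8, chr2:163074820-163074946: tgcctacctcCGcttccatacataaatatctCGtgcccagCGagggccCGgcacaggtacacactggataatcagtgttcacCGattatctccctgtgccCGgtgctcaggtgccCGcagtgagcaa
Exon 11, chr2:163079594-163079694: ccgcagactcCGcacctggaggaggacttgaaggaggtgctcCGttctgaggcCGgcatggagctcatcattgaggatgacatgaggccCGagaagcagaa
Intron 11, chr2:163079882-163079936: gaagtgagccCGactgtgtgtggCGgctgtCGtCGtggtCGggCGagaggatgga

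Over the 17 marked CpGs before the start, the ESC means were 0.806% for R1 and 0.846% for Tet/Tet, and the neuron means 1.38% for R1 and 0.635% for Tet/Tet. The highest single value at these 17 CpGs was 4.73%, in Tet/Tet neurons. All 4 libraries were therefore nearly free of methylation at the marked CpGs. Unmarked CpGs of this region were listed in neurons only. R1 neurons had 16.7% at chr2:163054536 and 6.9% at chr2:163054679, against 0% in Tet/Tet neurons. The other unmarked CpGs listed there were at 0% in both neuron libraries. Over the 4 CpGs of intron 3 and exon 4, the means were 31.0% and 4.47% for R1 and Tet/Tet ESCs, then 87.0% and 9.92% for the neurons of R1 and Tet/Tet. The values of the libraries did not overlap between R1 ESCs (21.6 to 39.9%) and Tet/Tet ESCs (1.08 to 9.26%). Exon 8 had 5 CpGs with means of 73.2%, 11.7%, 92.2% and 18.7% in the same order of libraries. Intron 8 had 7 CpGs with means of 69.2%, 18.5%, 97.2% and 24.3%. In both of these groups every CpG was higher in R1 ESCs than any CpG was in Tet/Tet ESCs, with lowest R1 values of 64.8% and 50.0% against highest Tet/Tet values of 21.6% and 32.0%. The groups were shown because they were lower in Tet/Tet ESCs, and how often groups separate in this way over the genome was not computed. Intron 11 had 6 CpGs with means of 70.7%, 25.5%, 98.4% and 32.7%. Its CpGs reached from 51.7 to 82.8% in R1 ESCs and from 6.82 to 38.6% in Tet/Tet ESCs. Exon 11, with 4 marked CpGs, had means of 72.0%, 26.7%, 43.9% and 27.5% in that order. It was the group in which R1 neurons did not exceed R1 ESCs.

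**Figure D1:**
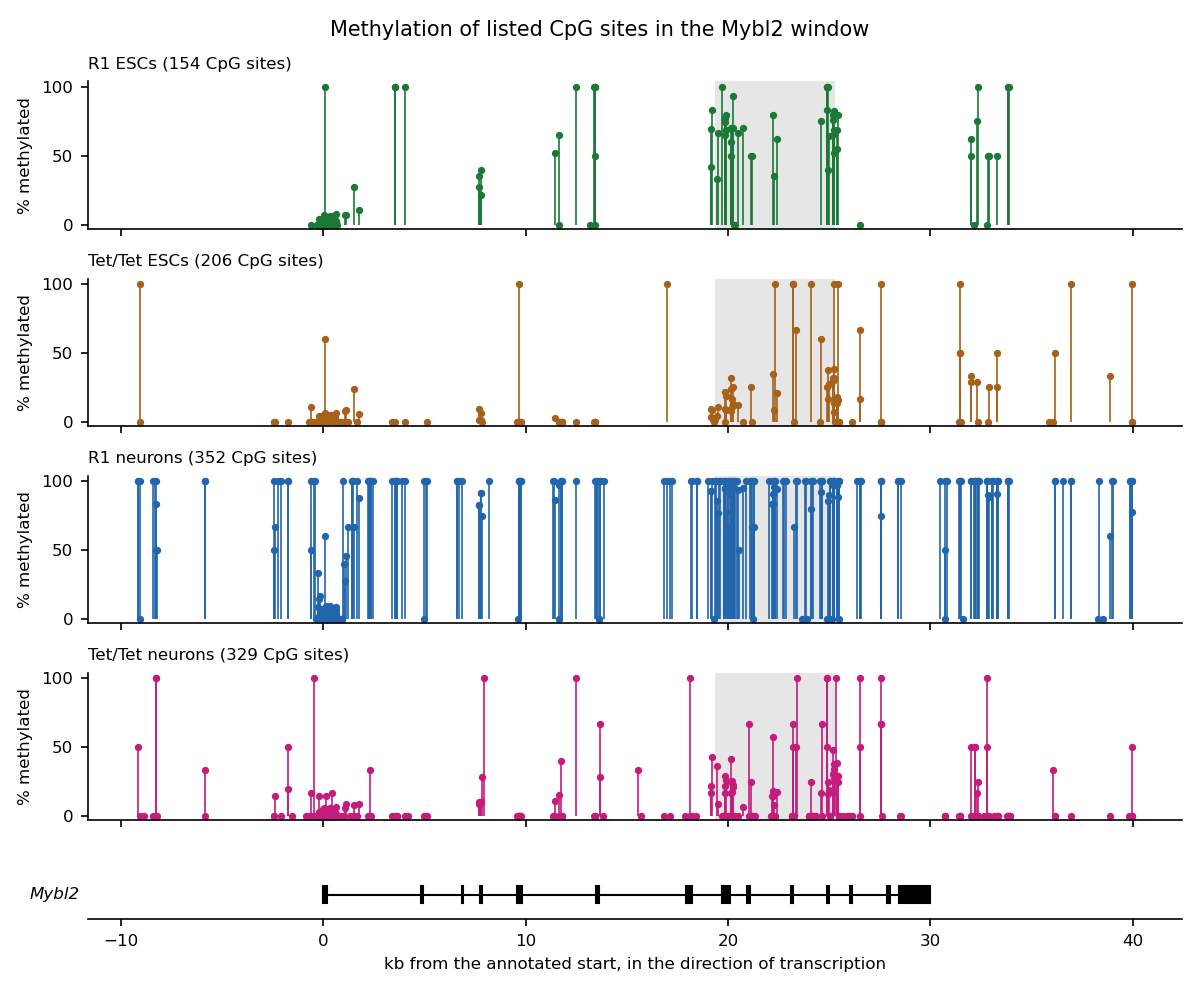
Percent of reads with cytosine at each listed CpG (vertical axis, 0 to 100%) against distance from the Mybl2 start in kb, with 154 (R1) and 206 (Tet/Tet) sites for ESCs and 352 (R1) and 329 (Tet/Tet) for neurons; black boxes are exons and the grey band is the stretch from 19352 to 25278 bp. Most sites of the CpG island at the start are near 0% in every library. Most listed sites of the gene body are high in R1 neurons, intermediate to high in R1 ESCs and low in both Tet/Tet libraries.

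Of the 422 listed sites, 133 were listed in all 4 libraries and 125 in only 1. Both ESC libraries listed 138 and both neuron libraries 267. In the window 35.1% of the listed sites of R1 ESCs and 42.2% of those of Tet/Tet ESCs were at exactly 0 or 100%. The corresponding shares for neurons were 65.9% (R1) and 66.3% (Tet/Tet). A value of 0 or 100% can come from very few reads, and the tables do not say how many.

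The Mybl2 start separated the libraries by a few points at most in the mean. A CpG island of 1149 bp with 91 CpGs covers it (chr2:163054345-163055493). Within 1 kb of the start, 74 sites listed in both ESC libraries averaged 2.8% in R1 and 2.3% in Tet/Tet. Over the 73 sites listed in all 4 libraries, R1 and Tet/Tet both averaged 1.5% in ESCs, and they averaged 3.1% and 1.4% in neurons. The 92 sites that both neuron libraries listed averaged 6.0% in R1 and 2.4% in Tet/Tet, with single differences as large as -100 points. The island CpG at chr2:163054790 was an exception to the low levels, with 100% in R1 ESCs and 60% in both Tet/Tet ESCs and R1 neurons. The first sites beyond the island, in intron 1, kept close in the ESC pair. At 1083 bp from the start R1 ESCs had 7.0% and Tet/Tet ESCs 7.5%, at 1143 bp 7.3% and 8.3%, and at 1540 bp 27.3% and 23.8%. R1 neurons already had 27.8%, 45.9% and 66.7% at these 3 CpGs, against 6.1%, 8.5% and 7.7% in Tet/Tet neurons. The edge of the unmethylated region thus lay closer to the start in R1 neurons than in the other 3 libraries at these CpGs.

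The body of Mybl2 held the ESC difference. Taking the gene from end to end, its 110 sites shared by the ESC libraries averaged 32.6% in R1 and 8.29% in Tet/Tet, a difference of -24.3 percentage points and the 2nd lowest of 14136 protein-coding genes with at least 20 shared sites. Of 17001 such genes of any type, 0.547% were at least 10 points lower in Tet/Tet ESCs. With only sites in predicted MspI fragments the Mybl2 difference was -8.02 points, and as a median over sites -4.68, so that under either it no longer reached 10 points. At Mybl2 the difference lay beyond 1 kb of the start, where 57 shared sites averaged 59.6% and 13.6%. Of these 57 sites 52 were lower in Tet/Tet ESCs, 3 were higher and 2 were equal. At 50 the fall was at least 10 points, a size seen at 11% of the 1992568 sites that both ESC libraries listed. That share takes in sites too low in R1 ESCs to fall by 10 points. No share over sites matched for R1 level was computed. On this body measure, Mybl2, at -46.0 points, was the lowest of 11043 genes. The next 2 were Samd11 at -28.1 and Vps4a at -24.6, which are named here after their values were seen. The median gene differed by 1.09 points, with medians of 36.0% for R1 and 37.8% for Tet/Tet. R1 ESCs were thus above the median gene at the body of Mybl2, and Tet/Tet ESCs below it.

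**Figure D2:**
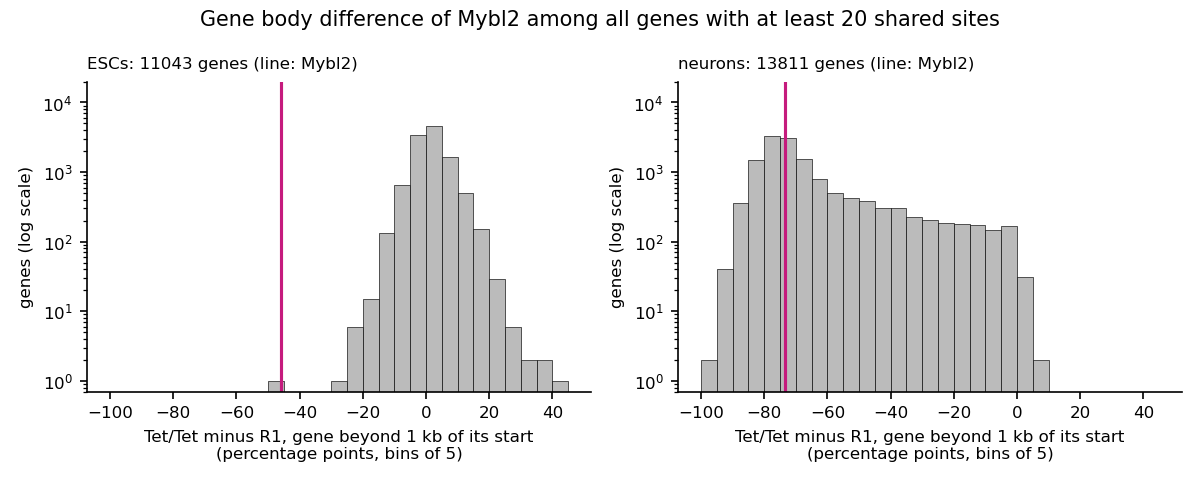
Number of genes (log scale) by their Tet/Tet minus R1 difference in percentage points, over sites beyond 1 kb of the start, for 11043 genes in ESCs and 13811 in neurons; the line is Mybl2. In ESCs Mybl2, at -46.0, stands alone at the low end, and in neurons, at -73.3, it lies near the median of -72.5.

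In neurons the same gene was an ordinary one. Across Mybl2, 183 sites that the neuron libraries shared averaged 60.8% in R1 and 11.5% in Tet/Tet, a difference of -49.4 points against a median of -49.7 over 17300 genes. Of those genes, 91.3% were at least 10 points lower in Tet/Tet neurons. Beyond 1 kb of the start, 123 sites averaged 89.7% and 16.4%, a difference of -73.3 points beside a median of -72.5 over 13811 genes. Of the 123 sites, 112 were at least 10 points lower, beside 70.8% of the 3286239 sites shared by the neuron libraries. A fall of this size at Mybl2 in neurons was thus that of most genes.

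Tiles of 1 kb with at least 5 sites shared by the ESC libraries were few, because RRBS reads a gene body only here and there. Only 4 such tiles were found in the window, and 2 of them were at least 10 points lower in Tet/Tet ESCs, a call met by 8.36% of the 103863 tiles of the genome. The 2 tiles over the start, with 55 and 21 shared sites, had 3.1% and 2.6% in the R1 library and 2.5% and 2.2% in the Tet/Tet library. The tile at chr2:163074000-163074999, over exon 8 and intron 8, had 14 shared sites and went from 67.9% to 14.5%. The tile at chr2:163079000-163079999, over exon 11 and intron 11, had 11 and went from 71.6% to 29.1%. No tile lay near the 10-point limit, since the tile next to it on the other side differed by -0.61 points.

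A looser minimum of 3 shared sites shows more of the gene. It gave 12 tiles, of which 10 were at least 10 points lower in Tet/Tet ESCs, by 26.5 to 62.5 points, 8 of them in the gene and 2 downstream of it. The share of such tiles over the genome was not computed at this minimum, so the count has no background beside it. Among the lower tiles of the gene, the R1 ESC level was lowest in those nearest the start. It was 31.0% in the tile 7.8 kb from the start, 39.1% at 11.8 kb, 62.5% at 13.8 kb and between 59.2 and 71.6% in the 5 tiles from 18.8 to 25.8 kb. Tet/Tet ESCs had 4.5%, 0.9% and 0% in the first 3 of these tiles and between 7.3 and 29.1% in the other 5. Some tiles with fewer than 3 shared sites departed from the order seen in R1 ESCs. R1 ESCs had 100% over 2 shared sites at 3.8 kb and 0% at 1 site at 26.8 kb. The levels at 13.8 kb rest on 4 sites in the region of Mir7003, a microRNA gene inside intron 5, where R1 ESCs had 100, 100, 50.0 and 0% and Tet/Tet ESCs 0% at each.

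Split by distance from the start, with its first 1 kb left out, the gene showed the same order of the ESC libraries in each part. Up to 10 kb, 10 shared sites averaged 37.6% for R1 ESCs and 6.3% for Tet/Tet ESCs. From 10 to 20 kb the means over 18 sites were 62.7% and 5.4%, and from 20 kb to the gene end over 29 sites 65.2% and 21.2%. Tet/Tet ESCs were thus lowest in the first 20 kb and higher in the last part, where R1 ESCs were little above their level in the middle. Exons and introns were alike in this. Beyond 1 kb of the start, 11 exonic sites averaged 65.1% and 15.7%, and 46 intronic sites 58.2% and 13.1%. All 11 exonic sites lay in coding exons and all 11 were lower in Tet/Tet ESCs.

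**Figure D3:**
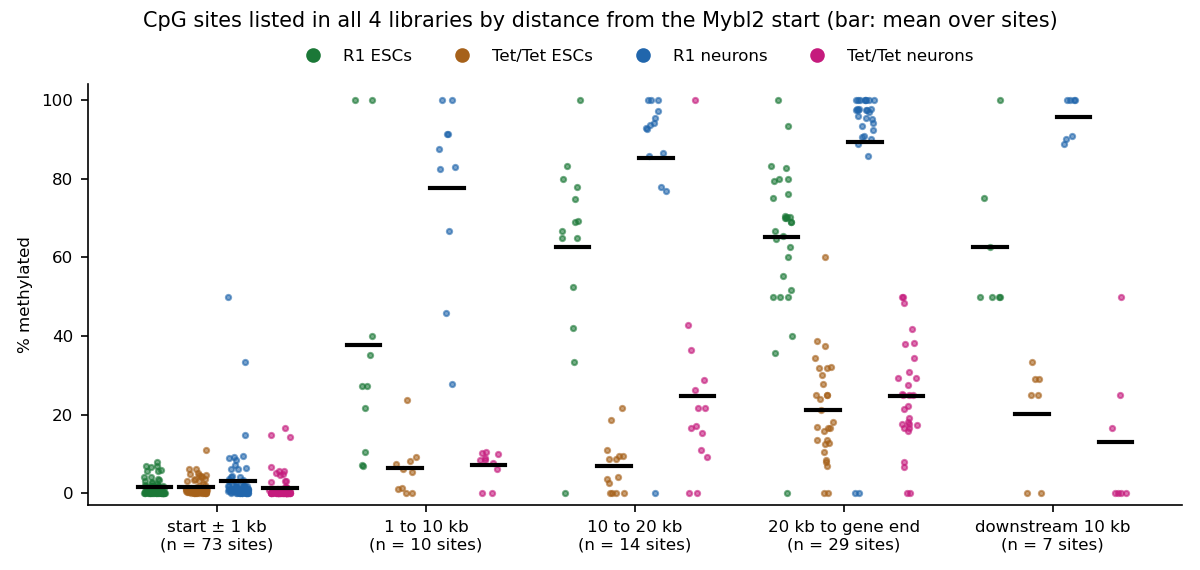
Percent methylation (vertical axis) of the CpG sites listed in all 4 libraries, in 5 parts of the Mybl2 window; points are sites and black bars their means. Points of the R1 and Tet/Tet libraries overlap within 1 kb of the start, and beyond it the mean of each Tet/Tet library is below the mean of its R1 counterpart in all 4 parts.

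Joining the 2 lower tiles gave the differing stretch, chr2:163074039-163079965, 5927 bp from intron 7 to intron 11. All of its 32 sites shared by the ESC libraries were also listed in both neuron libraries, so the 4 libraries can be read at the same CpGs. R1 ESCs had a lowest value of 33.3%, a median of 69.5% and a highest of 100%, with a mean of 67.3% ± 15.2 (SD over 32 sites). Tet/Tet ESCs had 0, 17.7 and 60%, with a mean of 19.5% ± 13.5. All 32 sites were lower in Tet/Tet ESCs, by 15.0 to 77.8 points, though the ranges of the libraries overlapped between 33.3 and 60%. R1 neurons had 0, 95.4 and 100%, with a mean of 88.5% ± 24.0. Tet/Tet neurons had 0, 21.5 and 50.0%, with a mean of 22.1% ± 12.6. Of the 32 sites 30 were lower in Tet/Tet neurons than in R1 neurons.

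From ESCs to neurons the lines can be compared at these 32 sites. Tet/Tet neurons minus Tet/Tet ESCs averaged 2.59 points with an SD of 13.9 over sites, with 17 sites higher and 13 lower in neurons. R1 neurons minus R1 ESCs averaged 21.2 points with an SD of 33.1, 29 higher and 3 lower. Both changes start from the ESC levels on which the stretch was chosen, low in Tet/Tet and higher in R1. Neither change is therefore free of that choice. Between the neuron libraries the difference averaged -66.4 points, and over all 58 sites that both neuron libraries listed it was -72.0, from 89.9% to 17.8%. Tiles with the ESC level of this stretch in R1 serve as a scale for the neuron levels. Over the 22393 tiles of the genome that had 50 to 80% in R1 ESCs, the ESC medians were 62.4% (R1) and 65.5% (Tet/Tet), and the neuron medians 93.8% (R1) and 18.3% (Tet/Tet). The exon 8 tile of Mybl2 had neuron means of 93.1% for R1 and 22.1% for Tet/Tet, and the exon 11 tile, in which 2 sites were at 0% in R1 neurons, had 78.0% and 29.4%. The Tet/Tet ESC levels of these Mybl2 tiles, 14.5% and 29.1%, were below the lower quartile of 57.5% for such tiles. Only 535 of the 22393 tiles, or 2.39%, were at least 25 points lower in Tet/Tet ESCs than in R1 ESCs, and their median in Tet/Tet neurons was 15.3%. At least 10 points between the neuron libraries was the rule over the genome, with 91% of 194618 tiles lower in Tet/Tet.

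**Figure D4:**
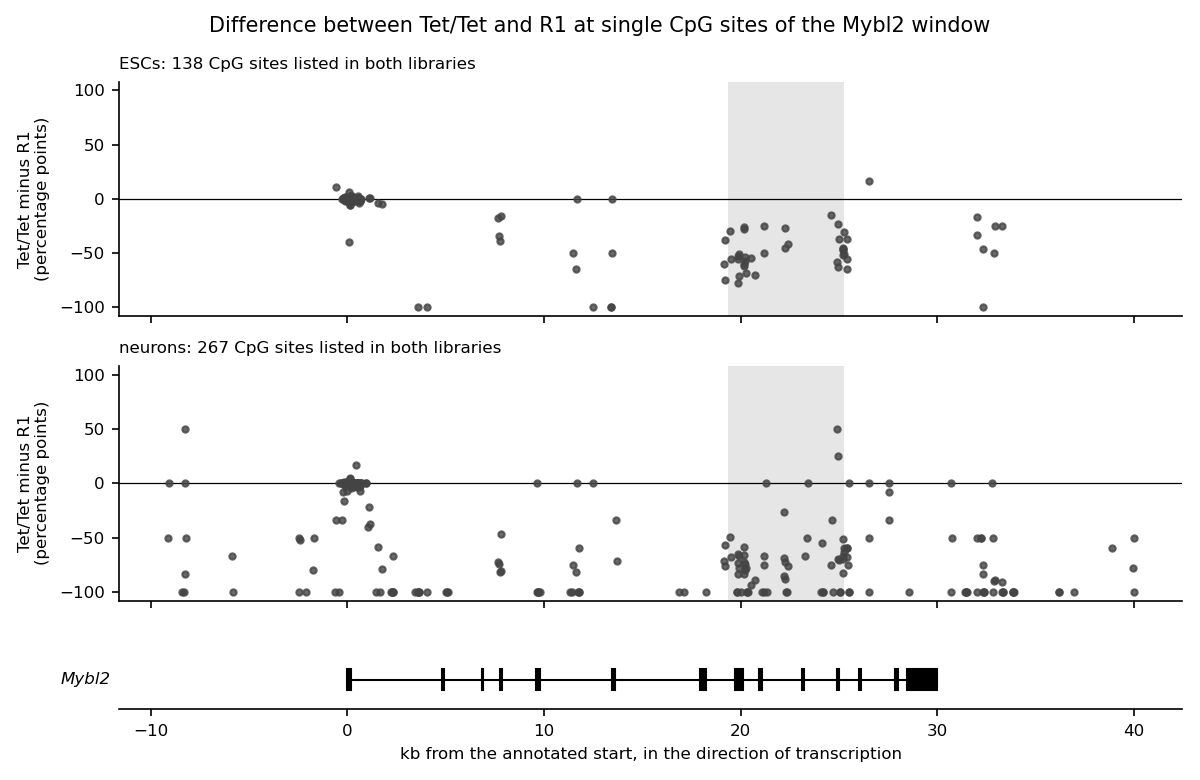
Tet/Tet minus R1 in percentage points at each CpG listed in both libraries of a pair, against distance from the Mybl2 start in kb, for 138 sites in ESCs and 267 in neurons; boxes are exons and the grey band is the differing stretch. Most points within 1 kb of the start lie near 0 in both panels, though single sites there reach -40 in ESCs and -100 in neurons. Of the 57 ESC sites in the gene beyond 1 kb of the start, 52 lie below 0.

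A few sites of Mybl2 went another way. At chr2:163081200, in intron 12, R1 ESCs had 0% and Tet/Tet ESCs 16.7%. The site at chr2:163066359, in intron 5, was at 0% in all 4 libraries, though the CpG at chr2:163066320 had 65.0% in R1 ESCs and 97.1% in R1 neurons. In exon 11 the CpGs at chr2:163079604 and chr2:163079636 had 83.3% and 100% in R1 ESCs but 0% in R1 neurons, against 50% and 25% in Tet/Tet neurons. These 2 CpGs were the only sites of the stretch at which Tet/Tet neurons exceeded R1 neurons. The next CpGs of the same exon, at chr2:163079647 and chr2:163079683, were highly methylated in R1 neurons, the second at 90.0%. Without read counts, a site at 0% beside highly methylated ones cannot be told from a site read only a few times.

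The choice of sites matters for the levels. Each library's own sites in the stretch gave ESC means of 67.2% for R1 (38 sites) and 29.0% for Tet/Tet (41 sites), and neuron means of 87.6% (81 sites) and 18.4% (77 sites). The Tet/Tet ESC mean was thus higher than the 19.5% at the 32 shared sites. Beyond 1 kb of the start the own-site means were 60.5% for R1 ESCs (66 sites) and 18.8% for Tet/Tet ESCs (96 sites). RRBS is designed to read MspI fragments, cut at CCGG, of limited length. In the gene body only 11 of the 57 shared ESC sites fell in predicted fragments of 40 to 220 bp, with 48.4% in R1 and 13.1% in Tet/Tet, while 49 lay within 100 bp of a CCGG, with 59.3% and 12.7%. The other 8 had 61.2% and 19.1%. Tet/Tet ESCs were lower in each of these sets.

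Outside the gene, the downstream sites that the ESC libraries shared followed the gene body. All of them lay between chr2:163086706 and chr2:163087969. In the 10 kb downstream 7 shared sites averaged 62.5% in the R1 and 20.2% in the Tet/Tet ESC library, all 7 lower in Tet/Tet, and 36 sites shared in neurons averaged 93.3% and 10.9%. They include the gene Gtsf1l (chr2:163087034-163087855, minus strand), a relative of the germline factor Gtsf1, with 2 shared ESC sites at 50.0% and 12.5% on average and 8 shared neuron sites at 97.4% and 18.8%. Each ESC library's own sites in the 10 kb downstream averaged 61.5% in R1 (12 sites) and 32.1% in Tet/Tet (21 sites). Upstream, beyond 1 kb of the start, the ESC libraries shared no site, and 16 sites averaged 81.2% and 23.0% in R1 and Tet/Tet neurons. The end of Ift52, a gene of intraflagellar transport, lies in that flank, without a shared ESC site there. Over the whole of Ift52 the ESC means were 36.2% and 32.1%. The microRNA gene Gm22174 in the downstream flank held no shared site.

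Farther away the difference in ESCs was smaller. Of the 15 other genes within 500 kb that had at least 20 shared sites, 11 were lower and 4 higher in Tet/Tet ESCs, with a median of -2.28 points and a range from -16.2 to 2.14. Only Gm11454, a non-coding gene at chr2:163122606-163143959 named here after its value was seen, was at least 10 points lower, from 58.0% to 41.8%. Of 89 tiles within 500 kb outside Mybl2, 16 were at least 10 points lower and 9 at least 10 points higher. The share of higher tiles over the genome was not computed, so the count of 9 has no background beside it. The share of lower tiles there, 18.0%, was above the 8.36% of the genome. No neighbouring gene differed by as much as Mybl2, which largely follows from choosing Mybl2 for its difference.

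Mybl1 could be compared at its start. A CpG island of 1882 bp with 149 CpGs covers it (chr1:9699403-9701284). In the ESC pair its 18 shared gene sites averaged 1.25% in R1 and 1.70% in Tet/Tet, all of them near the start, and 67 shared sites within 1 kb of the start averaged 3.0% and 3.3%. Beyond 1 kb of its start, the body of Mybl1 was without a listed site for R1 ESCs and had 1 for Tet/Tet ESCs, at 100%. The difference at the Mybl2 body thus had no counterpart that could be measured in Mybl1. In neurons, 32 shared sites over the Mybl1 gene averaged 16.4% in R1 and 14.8% in Tet/Tet, a difference of -1.58 points. Beyond 1 kb of the start only 5 were shared, at 100% in R1 neurons and 70.0% on average in Tet/Tet neurons. Far upstream of Mybl1, 2 sites shared by the ESC libraries averaged 100% in R1 and 75% in Tet/Tet. In the flanks, 5 downstream sites went from 100% to 16.4% and 2 upstream sites from 100% to 0% in neurons. Myb, on chromosome 10, had 105 shared ESC sites at 9.62% in R1 and 10.8% in Tet/Tet, and its level in Tet/Tet neurons was not analysed here.

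**Figure D5:**
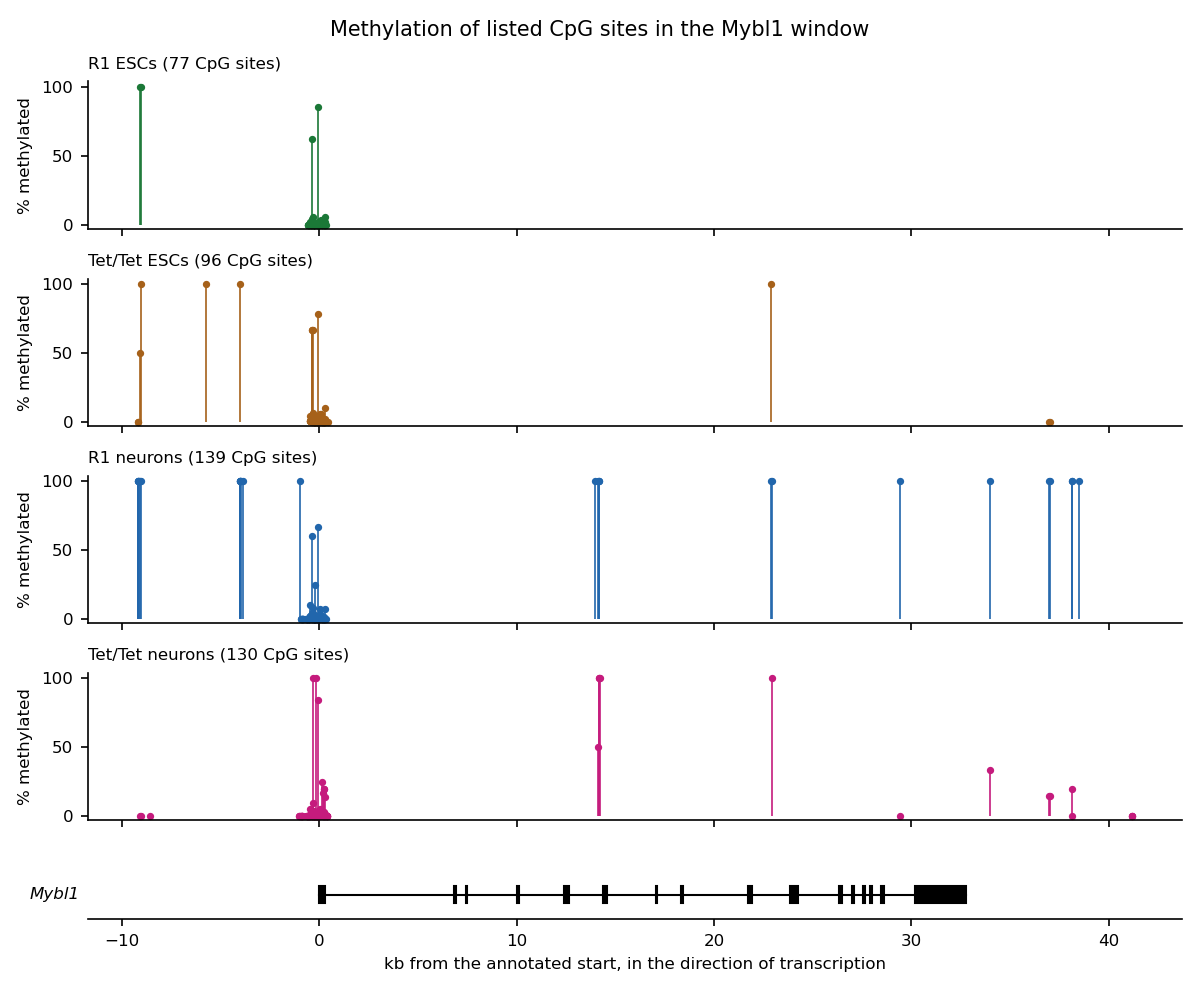
Percent methylation of each listed CpG (vertical axis) against distance from the Mybl1 start in kb, with 77 (R1) and 96 (Tet/Tet) sites for ESCs and 139 (R1) and 130 (Tet/Tet) for neurons; boxes are exons. Most sites cluster at the start near 0% in all 4 libraries, and the gene body holds no site for R1 ESCs and 1 for Tet/Tet ESCs.

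The partners and targets of B-Myb were taken as a list of 27 genes, made up of the MuvB core and DREAM subunits, Foxm1, cyclin A with its kinase and genes of G2 and M phase. Of the 25 with at least 20 shared ESC sites, 0 were at least 10 points lower in Tet/Tet ESCs and 1 was at least 10 points higher, beside 0.547% and 2.81% of all genes. At such a background a count of 0 among 25 genes says nothing particular of the list. The higher one was Rbl2, which encodes the pocket protein p130 of DREAM, with 29.8% in R1 and 41.9% in Tet/Tet over 41 sites. The largest fall was at Cdk2, a kinase that phosphorylates B-Myb, from 6.83% to 3.42% over 40 sites. The median over the 25 genes was 0.57 points. In neurons 17 of the 20 measured genes were at least 10 points lower in Tet/Tet, beside 91.3% of all genes. The median was -33.7 points beside -49.7 over all genes, with a range from -58.5 at Cenpf to -6.87 at Ccna2.

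The genes most like Mybl2 were sought by the Euclidean distance of their means in the 4 libraries, over 11196 protein-coding genes with at least 20 sites listed in all 4. Over 105 such sites, Mybl2 itself had 30.8% and 8.12% in R1 and Tet/Tet ESCs and 44.4% and 11.4% in the neurons of each line. The nearest was Ccdc32, at a distance of 7.80 points, with 26.7%, 13.7%, 40.8% and 11.1% over 30 sites. Bcat2, Cops7b and Tnip2 were at 11.3 to 12.0 points. All 4 had a lower mean in the Tet/Tet ESC library than in that of R1, and all 4 were higher than Mybl2 in Tet/Tet ESCs, from 13.7 to 18.3%. These genes were picked for means close to those of Mybl2, so their lower Tet/Tet ESC means largely follow from that choice. Likeness here is of 4 numbers, and every gene was measured in the same libraries.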

How the data were processed

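Per the labels and the study's methods, the authors digested genomic DNA with MspI, treated it with bisulfite, sequenced it on an Illumina HiSeq, trimmed the reads and mapped them to mm10. The submitters' processing notes name Trim Galore 0.6.4, FastQC 0.11.8, Bismark 0.19.0 and MethylDackel 0.3.0. The authors deposited, for each of the 4 libraries, a track of the percent of reads that kept cytosine at a CpG, without read totals and not normalized between libraries. The depth per site is unknown, so every site had equal weight and no interval was computed. The tables listed from 2311939 (R1 ESCs) to 5298360 (R1 neurons) sites, and all of those on chromosomes 1 and 2 stood at a CG of the sequence.

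Levels are unweighted means over sites that the compared libraries shared, except for the pluripotency markers and where a library's own sites are named. A gene needed 20 shared sites and a tile 5, and a call meant a difference of at least 10 percentage points. CpG islands exceeded 200 bp in length and 0.6 in the ratio of observed to expected CpGs, and had 50% GC or more. Python 3.11.15, numpy 2.4.6, pandas 2.3.3 and matplotlib 3.10.9 were used with GENCODE M21 genes and RefSeq GRCm38.p6 sequence. The gene and tile means were tested on simulated data. The tests planned for read counts could not be run on percentages.

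The members, the gene lists and the rules were chosen with earlier results of these data known. The genes named are the Myb family, the genes overlapping either window, list genes that differed by at least 10 points in ESCs with the largest rise and fall, and the 5 nearest genes by distance, of which 1 is not reported here. Outside that rule, the pluripotency genes are the markers of the ESC label, and Samd11, Vps4a, Gm11454, Cenpf and Ccna2 were named after their values were seen. For Tet/Tet neurons, chromosomes 8, 9 and part of 7 and of 10 were not used here. Alternatives changed the sites used, the weighting, the part of the gene and the tiles. A set of sites near CCGG was added after seeing the data.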

Additional observations from a re-analysis of the deposited data

How the results depend on the processing

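Without replicates or reads per site, no difference can be set against an error. How many molecules stand behind a level was not given, and a site at 0 or 100% may rest on very few. No paired analysis was possible because each condition has 1 library. No Mybl2 difference turned higher under any alternative run, but in ESCs the gene fell short of the 10-point limit under 2 of them. The Mybl2 gene difference in ESCs, -24.3 points, was -8.02 with only sites in MspI fragments and -4.68 as a median over sites, and it was -37.7 with 1 value per 100 bp, and -46.0 either without CpG islands or without 1 kb around the start. In neurons, -49.4 points became -33.0 at sites listed in all 4 libraries, -20.2 in MspI fragments, -65.3 with 1 value per 100 bp, -92.3 as a median, -72.1 without islands and -73.3 without the start. Shared sites are dense at the unmethylated start of Mybl2, and these alternatives change their weight. The Mybl1 neuron difference, -1.58 points, was -30 without islands or without the start, which leaves 5 sites, and -15.5 with 1 value per 100 bp. In ESCs, leaving out the islands or the start gave no value for Mybl1. Of the tiles, 2 were lower in Tet/Tet ESCs, 10 with at least 3 shared sites per tile and 0 with only MspI fragments, where 2 tiles were left. The difference of the stretch in neurons, -72.0 points, stayed between -66.4 and -81.4. Sites within 100 bp of CCGG, an alternative chosen after seeing the data, gave -22.9 in ESCs and -45.6 in neurons for the gene, -71.1 for the stretch in neurons and 2 lower tiles.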
